A study of Homo sapiens with 8 samples.

Results

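The genes described here carry out nucleotide excision repair and its transcription-coupled branch. There were 34 of them among the 21123 rows of the deposited expression table, listed by gene name from the known steps of the pathway, at a time when earlier results of these data were known. All 34 were listed, and all 34 passed the filter on low values that left 13495 genes for testing. By step they comprised 7 genes of damage recognition and its ubiquitin ligase, 7 of the TFIIH core, 3 of the kinase module of TFIIH, 3 nucleases or their partners, 5 of transcription-coupled repair and 9 of gap filling and ligation. They were measured by poly(A) RNA-seq in 143B, a human osteosarcoma line, in a 2 × 2 design of an shRNA and a drug, with 2 libraries in each of 4 groups. The groups were shZDHHC8 cells with cisplatin, shZDHHC8 cells with vehicle, shControl cells with cisplatin and shControl cells with vehicle. The labels give the genotype of shZDHHC8 cells as ZDHHC8 knockdown and that of shControl cells as WT, although the controls also carry a stable shRNA, one that is non-targeting. All groups grew in DMEM with 10% FBS and were treated for 48 h, the vehicle was PBS, and the labels state no cisplatin dose. Whether each shRNA line is a clone or a pool is not given in the sources used here, and only a single shRNA line per arm is described. An effect of the knockdown therefore cannot be told apart from other differences between the lines.

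Nucleotide excision repair removes bulky lesions, among them the crosslinks that cisplatin forms between neighbouring bases of a strand, by cutting out the damaged stretch and copying the intact strand. In the global branch the XPC complex, in which RAD23B and CETN2 are partners of XPC, finds the distortion, helped by DDB2 bound to the DDB1 and CUL4 ubiquitin ligase. In the transcription-coupled branch a stalled RNA polymerase II is recognised by ERCC6 and ERCC8, the Cockayne syndrome proteins, with UVSSA and ELOF1. Both branches call in TFIIH, whose ERCC3 and ERCC2 subunits open the helix, then XPA and the nucleases. DNA polymerases and a ligase then close the gap.

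Values are FPKM (fragments scaled by gene length and library size), as the deposited numbers were taken to be, so levels can be set beside each other across genes but the read depth behind a value is unknown. Each log2 change is a difference between group means of log2(FPKM + 1), fitted with limma. Low genes change less on that scale than in FPKM, and a gene was called higher or lower at an adjusted p below 0.05. With 2 libraries a group, the p-values rest on how far labelled replicates differ, which may be technical spread. Column totals were 361060 to 391016, and libraries correlated across tested genes on the log2 scale with a Pearson's r of 0.995 to 0.996 inside a group and 0.939 to 0.978 otherwise. ZDHHC8, the palmitoyltransferase targeted by the shRNA, was at 23.5 and 22.3 FPKM in shZDHHC8 cells with cisplatin and 14.3 and 9.81 with vehicle, against 32.3 and 32.8 in shControl cells with cisplatin and 23.7 and 23.1 with vehicle. It was lower in shZDHHC8 than in shControl libraries in each treatment, with log2 changes of -0.49 under cisplatin (limma adjusted p = 0.0102) and -0.92 in vehicle (adjusted p = 0.000472). The call under cisplatin ended without shZDHHC8 cisplatin replicate 2 (limma adjusted p = 0.0558). ZDHHC8 was itself higher with cisplatin in both backgrounds, by 0.89 in shZDHHC8 cells (limma adjusted p = 0.000717) and by 0.46 in shControl cells (adjusted p = 0.0136). The call in shControl cells ended without replicate 2 of shControl vehicle (limma adjusted p = 0.0578) or of shControl cisplatin (adjusted p = 0.0517). Among markers of the labelled lineage, SP7 and ALPL were not in the table, IBSP, COL1A2 and BGLAP stayed below 1 FPKM, and the other 5, RUNX2 and COL1A1 among them, passed the filter. Of 6 epithelial markers 5 passed it; 4 of these were lower with cisplatin in each background and 4 lower with the knockdown in each treatment. Their summed level was 605 to 627 FPKM in shZDHHC8 cells with cisplatin and 712 to 720 with vehicle, against 815 to 825 in shControl cells with cisplatin and 1000 to 1020 with vehicle. KRT5 averaged 7.48 FPKM in shZDHHC8 cells with cisplatin and 25.0 with vehicle, against 10.2 in shControl cells with cisplatin and 73.5 with vehicle. Of the 5 lineage markers tested, 2 rose and 2 fell with cisplatin in shZDHHC8 cells and 4 fell in shControl cells, and with the knockdown 4 were higher under cisplatin, among them SPP1 at 1.70, and 3 were higher and 2 lower in vehicle. The part of these markers in the results on the repair genes was not tested. All leukocyte markers and all 3 fibroblast markers stayed below 1 FPKM in all libraries, and CD3E was at 0. In bulk RNA, fewer cells of a kind and less RNA per cell cannot be told apart.

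All of the repair genes were detected in every group, at levels that differed widely between genes. Mean levels ran from 2.80 FPKM for UVSSA to 98.1 FPKM for DDB1 in shZDHHC8 cells with cisplatin, and from 2.37 FPKM for ERCC4 to 81.6 FPKM for RAD23B in shZDHHC8 cells with vehicle. In shControl cells they ran from 2.73 FPKM for GTF2H2 to 86.4 FPKM for DDB1 with cisplatin, and from 2.32 FPKM for ERCC4 to 78.6 FPKM for DDB1 with vehicle. The median of the 34 means was 16.1 FPKM in shZDHHC8 cells under either treatment, against 19.2 FPKM in shControl cells with cisplatin and 14.9 FPKM with vehicle. Between 5 and 7 members averaged below 5 FPKM in a group, among them the nuclease ERCC4, the coupling factors ERCC8 and UVSSA and the TFIIH subunits GTF2H2 and GTF2H5.

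**Figure D1:**
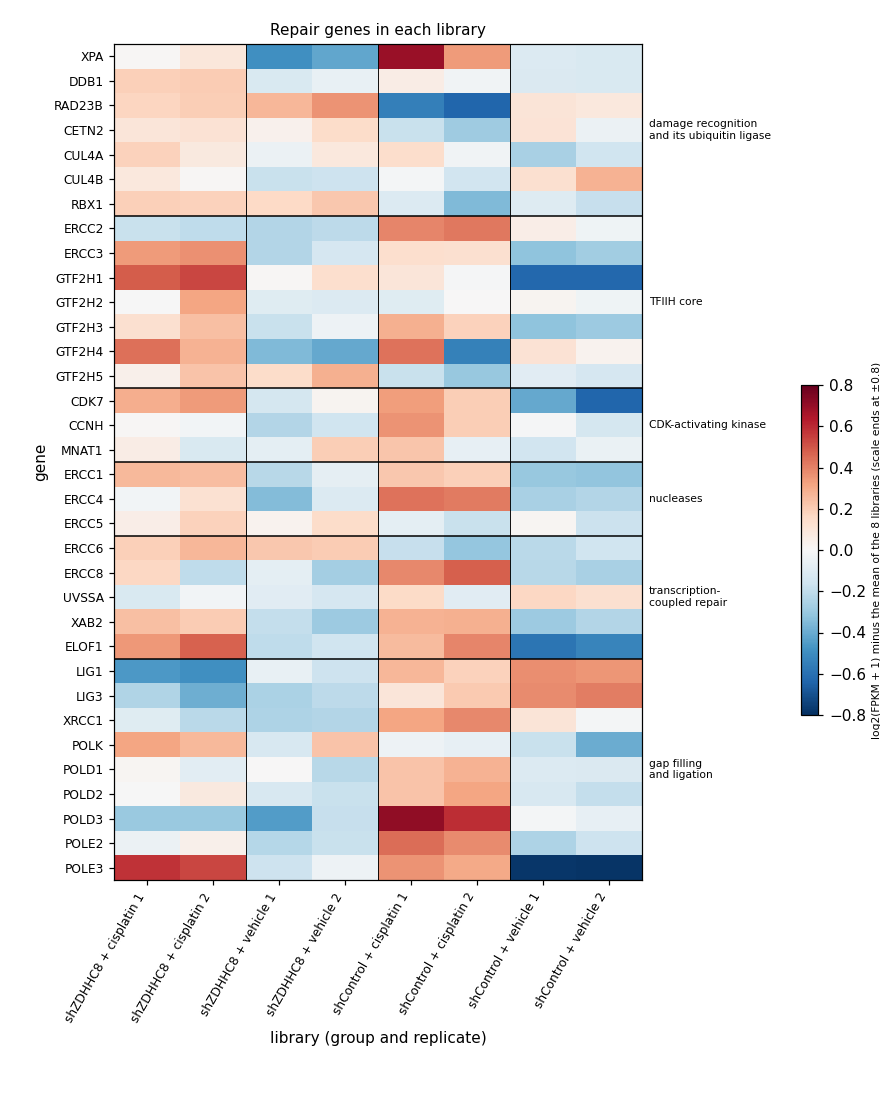
Each row is a repair gene, grouped by step, and each column a library; colour gives log2(FPKM + 1) minus the gene's mean over the 8 libraries. POLE3 spans the widest colour range, from 28.6 FPKM in shControl cells with vehicle to 75.2 FPKM in shZDHHC8 cells with cisplatin, and GTF2H1 and ELOF1 are likewise lowest in the shControl vehicle columns.

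Cisplatin raised more of these genes than it lowered in both backgrounds. In shZDHHC8 cells 15 members rose, 1 fell and 18 were not called, where 50.5% of all tested genes were called: 36.9% rose and 13.6% fell. In shControl cells 20 rose, 4 fell and 10 were not called, where 62.2% of all tested genes were called: 36.8% rose and 25.4% fell. The median log2 change of the members was 0.19 in shZDHHC8 cells, beside 0.13 over all tested genes, and 0.33 in shControl cells, beside 0.070 over all tested genes. The number that rose in shControl cells, 20 of 34, lay above the share of all genes, whereas the 15 of 34 in shZDHHC8 cells lay near it. Under median-of-ratios scaling the middle of all genes in shZDHHC8 cells moved by more than 0.1, from 0.132 to -0.000445, and 8 members rose and 2 fell. Changes with cisplatin in shZDHHC8 cells are therefore also given relative to the median of all genes. In shControl cells the middle of all genes moved under this scaling from 0.0696 to -0.0191. Changes with cisplatin in shControl cells are given without that centring, so they compare with the uncentred shZDHHC8 changes and not with the relative ones. The same scaling turned the calls over all genes to 2871 higher and 3119 lower in shZDHHC8 cells (4976 and 1841 as deposited) and to 4048 higher and 4363 lower in shControl cells (4967 and 3421 as deposited). Among the members it left 18 higher and 6 lower in shControl cells.

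Calls made jointly over both backgrounds were counted for the members only, without a share over all tested genes. A group of 13 members rose with cisplatin in both backgrounds. They were the lesion-verifying factor XPA, the adaptor DDB1, the TFIIH subunits ERCC3, GTF2H1 and GTF2H3, the kinase CDK7, the nuclease subunits ERCC1 and ERCC4, the coupling factors XAB2 and ELOF1, and the polymerase subunits POLD2, POLE2 and POLE3. Another 7, CCNH, CUL4A, ERCC2, ERCC8, POLD1, POLD3 and XRCC1, rose in shControl cells and were not called in shZDHHC8 cells. Of these CCNH lay at the threshold in shZDHHC8 cells, at 0.19 (limma adjusted p = 0.0501), and was called there under 6 alternatives (adjusted p 0.036 to 0.0493). GTF2H4 and CUL4B were called higher in shZDHHC8 cells alone as deposited, and CUL4B was called lower in shControl cells. For GTF2H4 the sign of the change in shControl cells depended on which cisplatin library was kept. UVSSA, GTF2H2 and MNAT1 were called in no comparison of treatment or knockdown as deposited.

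**Figure D2:**
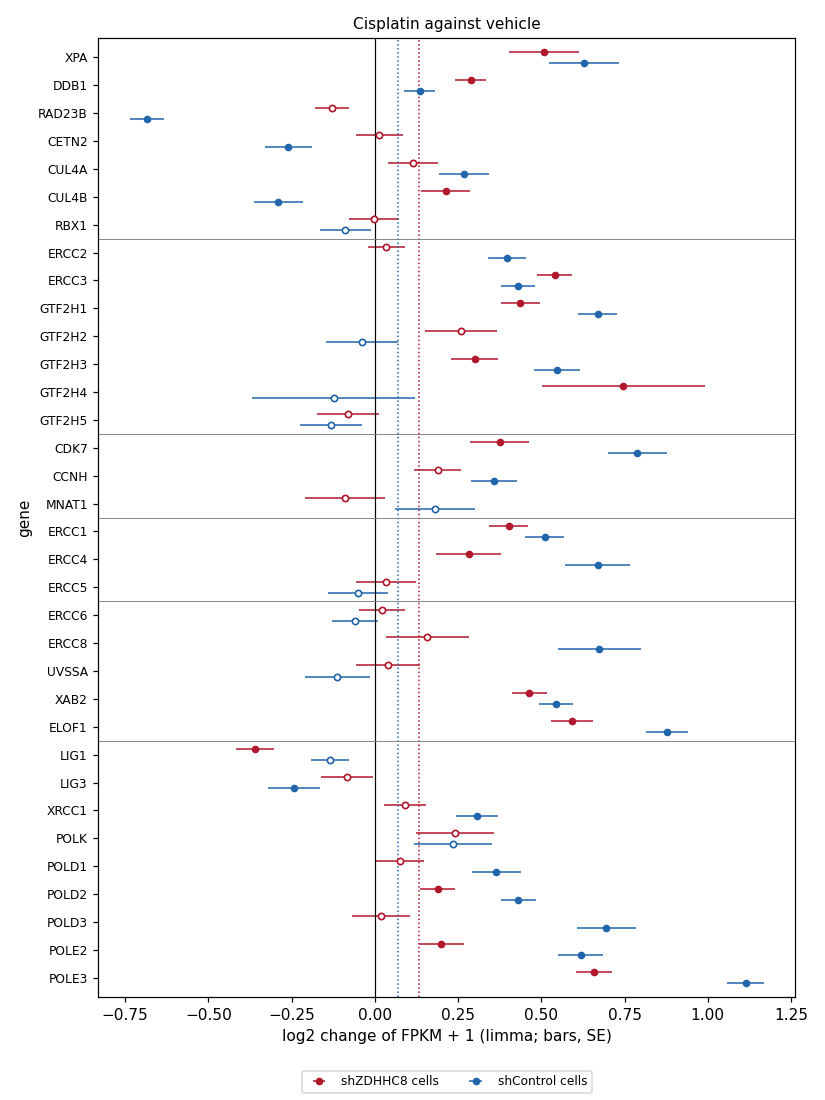
Log2 change with cisplatin for each repair gene (points, with SE bars), in shZDHHC8 cells (red) and shControl cells (blue); open points were not called and dotted lines mark the median of all tested genes. POLE3, at 0.66 in shZDHHC8 cells and 1.11 in shControl cells, lies farthest right in shControl cells, and RAD23B at -0.68 in shControl cells lies farthest left.

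Members differed between shZDHHC8 and shControl cells in both directions. Under cisplatin 11 members were higher in shZDHHC8 cells, 12 were lower and 11 were not called, where 61.4% of all tested genes were called: 33.8% were higher and 27.6% lower. In vehicle 12 were higher, 7 lower and 15 not called, where 51.7% of all tested genes were called: 26.7% were higher and 25.0% lower. The median log2 change was 0.051 under cisplatin, beside 0.042 over all genes, and 0.045 in vehicle, beside 0.015. Scaling to a common total turned the sign of both medians, to -0.042 under cisplatin and -0.019 in vehicle, and median-of-ratios scaling turned that under cisplatin to -0.017. With a common total the members split into 6 higher and 13 lower under cisplatin and 8 higher and 9 lower in vehicle, and all tested genes into 3701 higher and 4619 lower under cisplatin (4561 and 3720 as deposited) and 2888 higher and 4054 lower in vehicle (3602 and 3373 as deposited). ERCC6, GTF2H1, GTF2H5, POLE3, POLK, RAD23B and RBX1, 7 members, were called higher in both treatments. ERCC2, LIG1, LIG3, POLD3, XPA and XRCC1, 6 members, were called lower in both. A further 6, CCNH, ERCC4, ERCC8, POLD1, POLD2 and POLE2, were called lower under cisplatin and not called in vehicle. Calls in a single treatment do not show a difference between treatments, which is what the interaction tests. Joint calls over both treatments were counted for the members only, without a share over all tested genes.

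**Figure D3:**
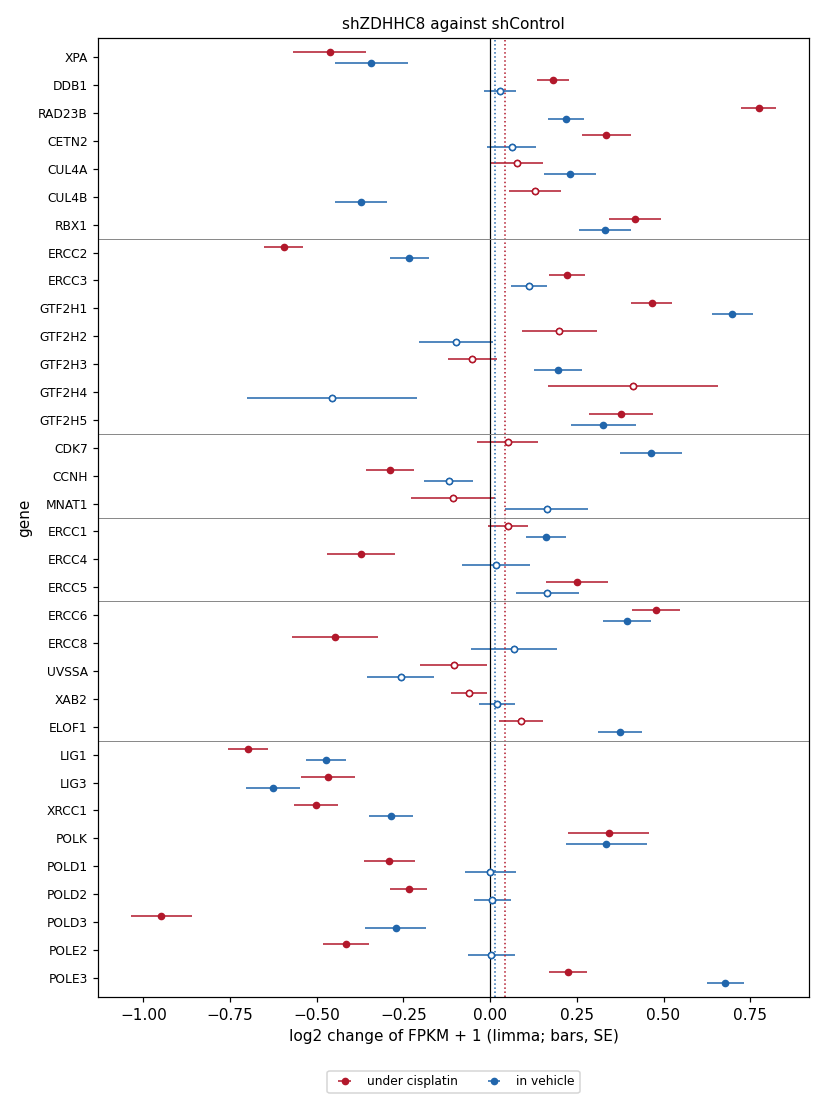
Log2 change of shZDHHC8 against shControl for each repair gene (points, with SE bars), under cisplatin (red) and in vehicle (blue); open points were not called and dotted lines mark the median of all tested genes. POLD3, at -0.95, lies farthest left under cisplatin and LIG3, at -0.63, in vehicle, while RAD23B at 0.77 under cisplatin and GTF2H1 at 0.70 in vehicle lie farthest right in their treatments.

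In the interaction, the change with cisplatin in shZDHHC8 cells minus that in shControl cells, 2 members were higher, 7 lower and 25 not called, where 30.4% of all tested genes were called: 17.0% were higher and 13.4% lower. The median over the members was -0.14, beside 0.039 over all tested genes. RAD23B and CUL4B were the members with a positive difference. ERCC2, CDK7, ELOF1, POLD2, POLD3, POLE2 and POLE3 were those with a negative difference. Gap filling and ligation held 4 of these 7. Median-of-ratios scaling called 13 members lower and a common total 11, while omitting the filter on low values, or the intensity trend of the variance, called 4. Over all tested genes the interaction called 2298 higher and 1806 lower as deposited. It called 1968 and 2216 under median-of-ratios scaling, and 2139 and 2058 with a common total. Without the filter it called 2111 and 1542 of 20721 genes, and without the trend 2187 and 1678.

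**Figure D4:**
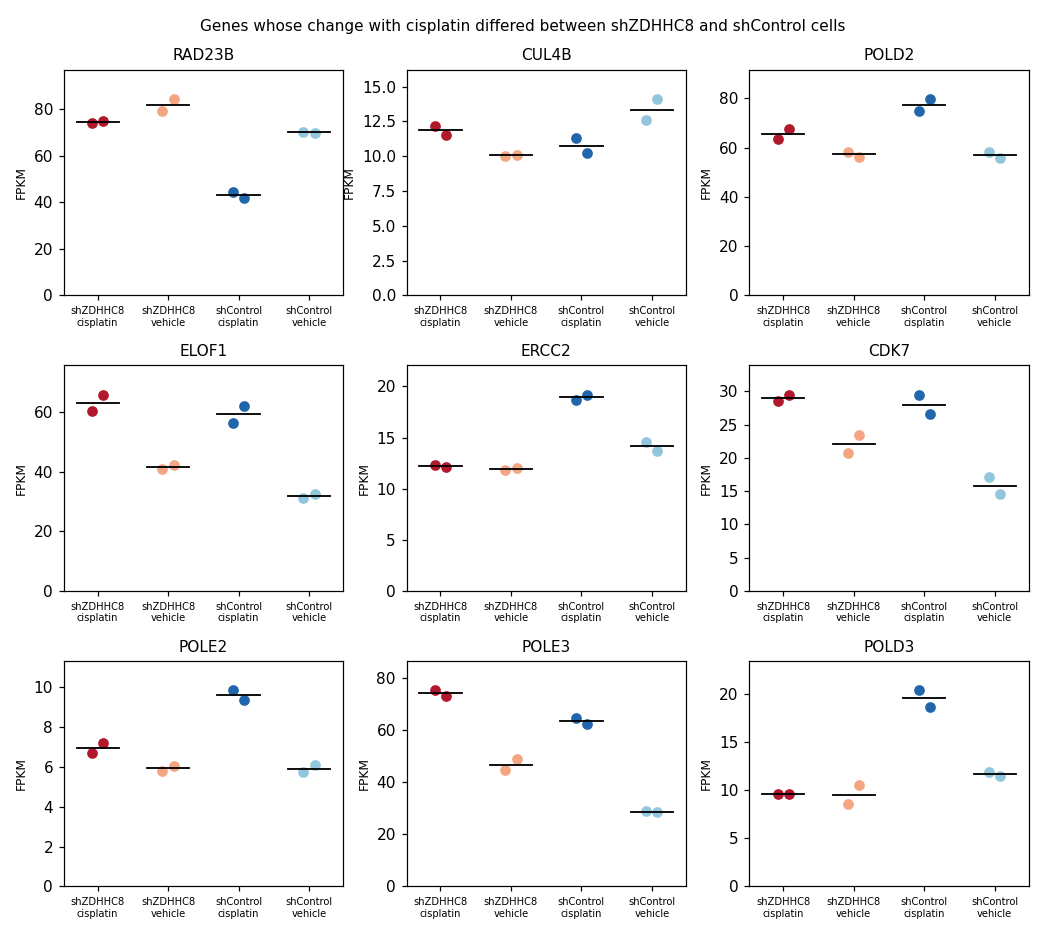
FPKM in each library (points) and group means (lines) for the 9 repair genes called in the interaction, with shZDHHC8 groups on the left and shControl groups on the right of each panel. RAD23B shows 44.5 and 41.8 FPKM in shControl cells with cisplatin, below its other 3 groups, and POLD3 shows 20.4 and 18.7 FPKM there, above its other 3 groups.

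Among the genes of damage recognition, RAD23B, which stabilises XPC, fell with cisplatin in shControl cells. It was at 73.9 and 75.0 FPKM in shZDHHC8 cells with cisplatin and 78.9 and 84.2 with vehicle, against 44.5 and 41.8 in shControl cells with cisplatin and 70.3 and 69.5 with vehicle. The shControl cisplatin libraries lay below the other 6, and no pair of groups compared overlapped. The log2 change with cisplatin was -0.13 in shZDHHC8 cells, 0.26 below the median of all genes and not called as deposited (limma adjusted p = 0.062). In shControl cells it was -0.68 (limma adjusted p = 7.12e-06), each with an SE of 0.051. RAD23B was higher in the knockdown by 0.77 under cisplatin (limma adjusted p = 4.97e-06) and by 0.22 in vehicle (adjusted p = 0.00666). Its interaction was 0.56 ± 0.072 (SE; limma adjusted p = 0.00103), the smallest adjusted p among the members. Under median-of-ratios scaling the fall with cisplatin in shZDHHC8 cells was also called, at -0.28 (limma adjusted p = 0.00141).

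CETN2, a centrin in the XPC complex, was at 20.8 and 21.1 FPKM in shZDHHC8 cells with cisplatin and 19.9 and 21.6 with vehicle, against 17.0 and 15.7 in shControl cells with cisplatin and 21.0 and 18.7 with vehicle. Its lowest values were again those of shControl cells with cisplatin, which overlapped no other group. With cisplatin CETN2 fell in shControl cells by 0.26 ± 0.071 (SE; limma adjusted p = 0.0112), a call lost without shControl vehicle replicate 1 (adjusted p = 0.0899) or shControl cisplatin replicate 2 (adjusted p = 0.0733). Under cisplatin it was higher in the knockdown by 0.33 (limma adjusted p = 0.00324). The interaction of CETN2 was 0.27 and was not called (limma adjusted p = 0.07).

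XPA, which verifies the lesion and holds the incision complex together, was at 6.24 and 6.67 FPKM in shZDHHC8 cells with cisplatin and 4.11 and 4.38 with vehicle, against 10.6 and 8.12 in shControl cells with cisplatin and 5.67 and 5.62 with vehicle. Cisplatin libraries were above vehicle libraries in each background, and shZDHHC8 libraries below shControl libraries in each treatment. It rose with cisplatin by 0.51 in shZDHHC8 cells, 0.38 above the median of all genes (limma adjusted p = 0.00406), and by 0.63 in shControl cells (adjusted p = 0.000813), each with an SE of 0.10. The knockdown change was -0.46 under cisplatin (limma adjusted p = 0.00468) and -0.34 in vehicle (adjusted p = 0.0238). The call in vehicle ended with any of the 4 vehicle libraries left out (limma adjusted p 0.0559 to 0.102).

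In the ubiquitin ligase, CUL4B, a scaffold, was at 12.2 and 11.5 FPKM in shZDHHC8 cells with cisplatin and 10.0 and 10.1 with vehicle, against 11.3 and 10.2 in shControl cells with cisplatin and 12.6 and 14.1 with vehicle. Its highest libraries were those of shControl cells with vehicle. It changed with cisplatin by 0.21 in shZDHHC8 cells, 0.080 above the median of all genes (limma adjusted p = 0.0405), and by -0.29 in shControl cells (adjusted p = 0.00819). The change in shZDHHC8 cells ended with any of the 4 shZDHHC8 libraries left out (limma adjusted p 0.0685 to 0.188), with a replicate block (adjusted p = 0.0576) and under median-of-ratios scaling (adjusted p = 0.442). That in shControl cells ended without shControl vehicle replicate 2 (limma adjusted p = 0.068) or shControl cisplatin replicate 2 (adjusted p = 0.0599). In vehicle CUL4B was lower in the knockdown by a log2 change of -0.37 (limma adjusted p = 0.00304), and its interaction was 0.50 ± 0.10 (SE; adjusted p = 0.00839).

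RBX1, the RING subunit that recruits the ubiquitin-conjugating enzyme, was at 37.0 and 36.9 FPKM in shZDHHC8 cells with cisplatin and 36.3 and 37.7 with vehicle, against 29.9 and 25.1 in shControl cells with cisplatin and 30.0 and 28.4 with vehicle. All 4 shZDHHC8 libraries exceeded all 4 shControl libraries, and the treatments overlapped in each background. It was higher in the knockdown by 0.42 under cisplatin (limma adjusted p = 0.00139) and by 0.33 in vehicle (adjusted p = 0.00621), each with an SE of 0.076. DDB1, the ligase adaptor, averaged 98.1 ± 0.615 FPKM in shZDHHC8 cells with cisplatin and 80.2 ± 2.53 with vehicle, against 86.4 ± 3.67 in shControl cells with cisplatin and 78.6 ± 0.253 with vehicle (SD, n = 2 each). Its rise with cisplatin was 0.29 in shZDHHC8 cells (limma adjusted p = 0.0012), 0.16 above the median of all genes, and 0.13 in shControl cells (adjusted p = 0.0334). The call in shControl cells was lost with median-of-ratios size factors (limma adjusted p = 0.565) and with any of 5 libraries left out, namely both of shControl vehicle, shControl cisplatin replicate 1 and both of shZDHHC8 cisplatin (adjusted p 0.0531 to 0.196). Under cisplatin DDB1 was higher in the knockdown by 0.18 (limma adjusted p = 0.00884), a call lost without shControl cisplatin replicate 2 (adjusted p = 0.0666) or with a common total (adjusted p = 0.113). CUL4A, the other scaffold, rose with cisplatin in shControl cells by 0.27 (limma adjusted p = 0.0128), which ended without shControl vehicle replicate 1 (adjusted p = 0.0827) or shControl cisplatin replicate 1 (adjusted p = 0.0926), and under median-of-ratios scaling, where the change was 0.16 (adjusted p = 0.0633). Its knockdown change in vehicle was 0.23 (limma adjusted p = 0.0303), and that call ended without shControl vehicle replicate 1 (adjusted p = 0.157) or shZDHHC8 vehicle replicate 2 (adjusted p = 0.167), or with a common total (adjusted p = 0.0871).

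In the TFIIH core 4 of 7 subunits rose with cisplatin in each background, where 36.9% of all tested genes rose in shZDHHC8 cells and 36.8% in shControl cells, and none fell. In shZDHHC8 cells 2 of 7 rose without shZDHHC8 cisplatin replicate 2 or under median-of-ratios scaling. GTF2H1, a structural subunit that contacts XPC and UVSSA, was at 41.4 and 42.8 FPKM in shZDHHC8 cells with cisplatin and 29.5 and 32.2 with vehicle, against 31.3 and 29.1 in shControl cells with cisplatin and 18.6 and 18.6 with vehicle. Cisplatin libraries stood above vehicle libraries in each background, and shZDHHC8 libraries above shControl libraries in each treatment. The rise with cisplatin was 0.44 in shZDHHC8 cells, 0.30 above the median of all genes (limma adjusted p = 0.000486), and 0.67 in shControl cells (adjusted p = 1.92e-05), each with an SE of 0.059. With the knockdown it was higher by 0.47 under cisplatin (limma adjusted p = 0.000181) and by 0.70 in vehicle (adjusted p = 2.74e-05).

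ERCC3, the XPB translocase, was at 35.7 and 36.3 FPKM in shZDHHC8 cells with cisplatin and 23.6 and 25.4 with vehicle, against 30.8 and 30.7 in shControl cells with cisplatin and 22.2 and 22.9 with vehicle. With cisplatin ERCC3 rose by 0.54 in shZDHHC8 cells, 0.41 above the median of all genes (limma adjusted p = 8.67e-05), and by 0.43 in shControl cells (adjusted p = 0.000114), each with an SE of 0.052. Under cisplatin it was higher in the knockdown by 0.22 (limma adjusted p = 0.00541), ending with a common total (adjusted p = 0.0592). ERCC2, the XPD helicase and the other enzyme of the TFIIH core, showed another pattern. It was at 12.3 and 12.1 FPKM in shZDHHC8 cells with cisplatin and 11.8 and 12.0 with vehicle, against 18.7 and 19.2 in shControl cells with cisplatin and 14.6 and 13.7 with vehicle. All 4 shZDHHC8 libraries were under the shControl ones, and within shZDHHC8 cells the cisplatin libraries lay narrowly above the vehicle libraries. The change with cisplatin was 0.035 in shZDHHC8 cells, 0.097 below the median of all genes (limma adjusted p = 0.63), and 0.40 in shControl cells (adjusted p = 0.000297), each with an SE of 0.056. Its interaction was -0.36 ± 0.079 (SE; limma adjusted p = 0.0103). With the knockdown ERCC2 was lower, at -0.59 under cisplatin (limma adjusted p = 3.35e-05) and -0.23 in vehicle (adjusted p = 0.00802), the call in vehicle ending without shControl vehicle replicate 1 (adjusted p = 0.0644). ERCC2 overlaps KLC3 on the other strand, and without a stated strand the values of such genes are uncertain.

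GTF2H4, which anchors ERCC3 in TFIIH, was at 12.1 and 10.7 FPKM in shZDHHC8 cells with cisplatin and 6.54 and 6.25 with vehicle, against 12.0 and 5.64 in shControl cells with cisplatin and 9.46 and 8.84 with vehicle. The 2 shControl cisplatin libraries stood far apart, on either side of the shControl vehicle values. With cisplatin the change in shControl cells was -0.12 (limma adjusted p = 0.681). It was 0.36 without shControl cisplatin replicate 2 and -0.61 without replicate 1. Without replicate 1 the interaction went from 0.87 to 1.36 and the knockdown change under cisplatin from 0.41 to 0.90. The knockdown change in vehicle, -0.46, was not called (limma adjusted p = 0.15). It was called with the libraries of that comparison alone (limma adjusted p = 0.00234). The rise with cisplatin in shZDHHC8 cells was 0.75 ± 0.24 (SE), 0.61 above the median of all genes (limma adjusted p = 0.032), and ended with any of the 4 shZDHHC8 libraries left out (adjusted p 0.072 to 0.135). GTF2H4 overlaps AL669830.2 on its own strand. GTF2H3, another structural subunit, rose with cisplatin by 0.30 in shZDHHC8 cells, 0.17 above the median of all genes (limma adjusted p = 0.0072), a call lost without shZDHHC8 cisplatin replicate 2 (adjusted p = 0.0569) or under median-of-ratios scaling (adjusted p = 0.0893). Its rise in shControl cells was 0.55 (limma adjusted p = 0.000165). In vehicle it was called higher in the knockdown at 0.20 (limma adjusted p = 0.0431). That call ended with any of 5 libraries left out, namely both of shControl vehicle, shZDHHC8 vehicle replicate 2 and both of shZDHHC8 cisplatin. It also ended with a common total (limma adjusted p = 0.143) and under median-of-ratios scaling (adjusted p = 0.0506). GTF2H5, the smallest subunit, was not called with cisplatin and was higher in the knockdown by 0.38 under cisplatin (limma adjusted p = 0.00714) and 0.33 in vehicle (adjusted p = 0.0174). Those calls of GTF2H5 ended without shZDHHC8 cisplatin replicate 2 (limma adjusted p = 0.0589) under cisplatin, and in vehicle without either shControl vehicle library or shZDHHC8 vehicle replicate 2 (adjusted p 0.0517 to 0.104). GTF2H2 stayed between 2.56 and 3.78 FPKM and was not called, although without shZDHHC8 cisplatin replicate 1 it was higher with cisplatin in shZDHHC8 cells at 0.42 (limma adjusted p = 0.0151), with the knockdown under cisplatin (adjusted p = 0.0194) and in the interaction (adjusted p = 0.0434). It has the near-identical copies GTF2H2B and GTF2H2C in the table, so its values are uncertain.

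In the kinase module, CDK7, the kinase that also phosphorylates RNA polymerase II, was at 28.5 and 29.5 FPKM in shZDHHC8 cells with cisplatin and 20.8 and 23.5 with vehicle, against 29.4 and 26.6 in shControl cells with cisplatin and 17.1 and 14.5 with vehicle. The cisplatin libraries of the backgrounds overlapped, whereas in vehicle the shControl libraries were lower. With cisplatin CDK7 rose by 0.37 in shZDHHC8 cells, 0.24 above the median of all genes (limma adjusted p = 0.00766), and by 0.79 in shControl cells (adjusted p = 7.66e-05), each with an SE of 0.089. The call in shZDHHC8 cells ended without shZDHHC8 vehicle replicate 1 (limma adjusted p = 0.0554) or under median-of-ratios scaling (adjusted p = 0.0572). In vehicle CDK7 was higher in the knockdown by 0.46 (limma adjusted p = 0.00245). Its interaction of -0.41 ± 0.13 (SE; limma adjusted p = 0.0367) ended with any of 5 libraries left out, namely replicate 2 of either vehicle group, shControl cisplatin replicate 1 and both of shZDHHC8 cisplatin (adjusted p 0.0749 to 0.109). CCNH, its cyclin, rose with cisplatin in shControl cells by 0.36 (limma adjusted p = 0.00195) and was lower in the knockdown under cisplatin at -0.29 (adjusted p = 0.00645). MNAT1, which assembles the module, stayed between 7.94 and 10.6 FPKM and was not called.

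Of the nucleases, ERCC1, the partner that positions the ERCC4 nuclease, averaged 35.3 ± 0.113 FPKM in shZDHHC8 cells with cisplatin and 26.5 ± 2.06 with vehicle, against 34.0 ± 0.53 in shControl cells with cisplatin and 23.6 ± 0.0946 with vehicle (SD, n = 2 each). Cisplatin raised ERCC1 by 0.40 in shZDHHC8 cells, 0.27 above the median of all genes (limma adjusted p = 0.000656), and by 0.51 in shControl cells (adjusted p = 8.05e-05). ERCC1 overlaps CD3EAP and FOSB on the other strand. In vehicle it was called higher in the knockdown at 0.16 (limma adjusted p = 0.0442). That call was lost on omitting any library other than shZDHHC8 vehicle replicate 1. It was also lost with a common total (limma adjusted p = 0.19) and under median-of-ratios scaling (adjusted p = 0.0567). ERCC4, the catalytic subunit also known as XPF, rose with cisplatin by 0.28 in shZDHHC8 cells, 0.15 above the median of all genes (limma adjusted p = 0.0394) and by 0.67 in shControl cells (adjusted p = 0.000353). The call in shZDHHC8 cells ended with any library left out other than shZDHHC8 vehicle replicate 2 (limma adjusted p 0.0505 to 0.224) and under median-of-ratios scaling (adjusted p = 0.187). Under cisplatin ERCC4 was lower in the knockdown at -0.37 (limma adjusted p = 0.00954), which ended without shZDHHC8 cisplatin replicate 1 (adjusted p = 0.0674). ERCC5, or XPG, which cuts on the other side of the lesion, was not called with cisplatin. It was called higher in the knockdown under cisplatin at 0.25 (limma adjusted p = 0.0374). That call was lost without either shControl cisplatin library or shZDHHC8 cisplatin replicate 2. A common total, median-of-ratios scaling, no filter and a replicate block each ended it as well. ERCC5 overlaps BIVM-ERCC5 on its own strand.

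In the transcription-coupled branch, ELOF1, an elongation factor that binds RNA polymerase II and helps load the repair factors, rose most. It was at 60.2 and 65.8 FPKM in shZDHHC8 cells with cisplatin and 40.8 and 42.1 with vehicle, against 56.4 and 62.0 in shControl cells with cisplatin and 31.1 and 32.4 with vehicle. As for CDK7, the cisplatin libraries of the backgrounds overlapped and the shControl vehicle libraries were lowest. The rise with cisplatin was 0.59 in shZDHHC8 cells, 0.46 above the median of all genes (limma adjusted p = 0.000144), and 0.88 in shControl cells (adjusted p = 6.03e-06), each with an SE of 0.063. In vehicle ELOF1 was higher in the knockdown by 0.37 (limma adjusted p = 0.00121). The interaction of -0.29 ± 0.089 (SE; limma adjusted p = 0.0402) ended with any of 6 libraries left out, namely the 4 vehicle libraries, shControl cisplatin replicate 2 and shZDHHC8 cisplatin replicate 1 (adjusted p 0.0623 to 0.133).

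ERCC6, the CSB translocase that first engages the stalled polymerase, was called with the knockdown in both treatments and not with the drug. It was at 8.08 and 8.58 FPKM in shZDHHC8 cells with cisplatin and 8.23 and 8.14 with vehicle, against 6.00 and 5.41 in shControl cells with cisplatin and 5.84 and 6.13 with vehicle. All 4 shZDHHC8 libraries exceeded all 4 shControl libraries, and the treatments overlapped in each background. In the knockdown ERCC6 was higher by 0.48 under cisplatin (limma adjusted p = 0.00039) and 0.40 in vehicle (adjusted p = 0.00157), each with an SE of 0.070. ERCC8, the CSA protein that brings a ubiquitin ligase to the stalled polymerase, had 3.55 and 2.52 FPKM in shZDHHC8 cells with cisplatin and 2.83 and 2.36 with vehicle, against 4.28 and 4.65 in shControl cells with cisplatin and 2.47 and 2.38 with vehicle. It rose with cisplatin in shControl cells by 0.67 (limma adjusted p = 0.00142) and was lower in the knockdown under cisplatin at -0.45 (adjusted p = 0.0126). The knockdown call ended without replicate 2 of shControl cisplatin or of shZDHHC8 cisplatin. The interaction of ERCC8, -0.52, was not called as deposited (limma adjusted p = 0.0551). It was called with a common total (limma adjusted p = 0.0449) and under median-of-ratios scaling (adjusted p = 0.0448). XAB2, an XPA-binding protein that also takes part in splicing, rose with cisplatin by 0.46 in shZDHHC8 cells, 0.33 above the median of all genes (limma adjusted p = 0.000189), and by 0.54 in shControl cells (adjusted p = 2.97e-05). It was called in neither knockdown comparison as deposited. With a common total XAB2 was called lower under cisplatin, at -0.15 (limma adjusted p = 0.0336). UVSSA, which hands TFIIH to the stalled polymerase, stayed between 2.63 and 3.47 FPKM. Its knockdown change in vehicle, -0.26, was not called as deposited (limma adjusted p = 0.0512) and was called under 6 alternatives, both rescalings among them (adjusted p 0.0228 to 0.0418). UVSSA overlaps AC078852.1 and AC078852.2 on its own strand.

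In gap filling and ligation, 3 of 9 genes rose with cisplatin and 1 fell in shZDHHC8 cells, near the shares of all tested genes. In shControl cells 6 rose and 1 fell, where 36.8% of all tested genes rose and 25.4% fell. In shZDHHC8 cells 1 rose without shZDHHC8 cisplatin replicate 2 or under median-of-ratios scaling, and 2 rose without any other shZDHHC8 library. With the knockdown 2 were higher and 7 lower under cisplatin, where 33.8% of all tested genes were higher and 27.6% lower. The median log2 change was -0.42 beside 0.042 over all tested genes. In vehicle 2 were higher and 4 lower, where 26.7% of all tested genes were higher and 25.0% lower, and the median was 0.00076 beside 0.015. The number lower under cisplatin was 6 to 7 under every alternative run, while the number higher was 0 with a common total. Of 15 markers of proliferating cells 1 was higher and 11 lower in each treatment, with median log2 changes of -0.37 under cisplatin and -0.28 in vehicle, and their summed level was 530 to 544 FPKM over the shZDHHC8 libraries, against 688 to 720 FPKM over the shControl libraries. The shares of all tested genes beside these knockdown counts are those given for the gap-filling genes. With cisplatin 5 of those markers rose and 6 fell in each background. Of all tested genes 36.9% rose and 13.6% fell in shZDHHC8 cells, and 36.8% rose and 25.4% fell in shControl cells. Their part in the changes of the gap-filling genes was not tested.

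POLE3, a histone-fold subunit of DNA polymerase epsilon, had the largest rise of the 34 in shControl cells. It was at 75.2 and 72.9 FPKM in shZDHHC8 cells with cisplatin and 44.5 and 48.7 with vehicle, against 64.5 and 62.1 in shControl cells with cisplatin and 28.8 and 28.6 with vehicle. No groups overlapped, and the shControl vehicle libraries were the lowest. Cisplatin raised POLE3 by 0.66 in shZDHHC8 cells, 0.53 above the median of all genes (limma adjusted p = 4.44e-05), and by 1.11 in shControl cells (adjusted p = 7.61e-07), each with an SE of 0.054. In the knockdown POLE3 was higher by 0.22 under cisplatin (limma adjusted p = 0.00645), which ended with a common total (adjusted p = 0.0528), and 0.68 in vehicle (adjusted p = 2.02e-05). Its interaction was -0.45 ± 0.077 (SE; limma adjusted p = 0.00337). POLE3 overlaps C9orf43 on the other strand.

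POLE2, an accessory subunit of the same polymerase, was at 6.71 and 7.22 FPKM in shZDHHC8 cells with cisplatin and 5.82 and 6.05 with vehicle, against 9.86 and 9.38 in shControl cells with cisplatin and 5.73 and 6.11 with vehicle. The vehicle groups overlapped, and the shControl cisplatin libraries were the highest. It rose with cisplatin by 0.20 in shZDHHC8 cells, 0.067 above the median of all genes (limma adjusted p = 0.0361), lost on omitting any of the 4 shZDHHC8 libraries (adjusted p 0.0535 to 0.187) and under median-of-ratios scaling (adjusted p = 0.447). In shControl cells the rise was 0.62 (limma adjusted p = 6.34e-05), and the interaction was -0.42 ± 0.095 (SE; adjusted p = 0.012). Under cisplatin POLE2 was lower in the knockdown at -0.42 (limma adjusted p = 0.000727).

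POLD3, an accessory subunit of DNA polymerase delta, was at 9.64 and 9.65 FPKM in shZDHHC8 cells with cisplatin and 8.58 and 10.5 with vehicle, against 20.4 and 18.7 in shControl cells with cisplatin and 11.9 and 11.5 with vehicle. The shControl cisplatin libraries stood apart from the other 6, and the treatments overlapped in shZDHHC8 cells. With cisplatin it changed by 0.019 in shZDHHC8 cells, 0.11 below the median of all genes (limma adjusted p = 0.874), and by 0.69 in shControl cells (adjusted p = 0.000157), each with an SE of 0.088. The interaction of -0.68 ± 0.13 (SE; limma adjusted p = 0.00488) was the most negative called among the members. The knockdown change was -0.95 under cisplatin (limma adjusted p = 3.14e-05) and -0.27 in vehicle (adjusted p = 0.0298). The call in vehicle ended without either shControl vehicle library or shZDHHC8 vehicle replicate 1 (limma adjusted p 0.0761 to 0.167), the last of which gave -0.14. POLD3 overlaps RANP3 and AP001372.2 on its own strand.

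POLD2, another accessory subunit of that polymerase, was at 63.7 and 67.4 FPKM in shZDHHC8 cells with cisplatin and 58.4 and 56.3 with vehicle, against 75.0 and 79.7 in shControl cells with cisplatin and 58.2 and 55.9 with vehicle. Its vehicle groups overlapped, and as for POLE2 the shControl cisplatin libraries were the highest. The rise with cisplatin was 0.19 in shZDHHC8 cells, 0.057 above the median of all genes (limma adjusted p = 0.0159), and 0.43 in shControl cells (adjusted p = 0.000123). The call in shZDHHC8 cells ended without replicate 2 of shZDHHC8 vehicle (limma adjusted p = 0.0715) or of shZDHHC8 cisplatin (adjusted p = 0.109), and under median-of-ratios scaling (adjusted p = 0.632). Under cisplatin POLD2 was lower in the knockdown at -0.24 (limma adjusted p = 0.00431), and its interaction of -0.24 ± 0.074 (SE; adjusted p = 0.0385) ended with any library left out other than shControl cisplatin replicate 1 (adjusted p 0.0502 to 0.128). POLD1, the catalytic subunit, rose with cisplatin in shControl cells by 0.37 (limma adjusted p = 0.00245) and was lower in the knockdown under cisplatin at -0.29 (adjusted p = 0.0085), a call lost without shZDHHC8 cisplatin replicate 2 (adjusted p = 0.0624). POLK, a translesion polymerase that can fill repair gaps, was called higher in the knockdown, at 0.34 under cisplatin (limma adjusted p = 0.0313) and 0.33 in vehicle (adjusted p = 0.0399). Both POLK calls were lost with a common total and without the filter, and that under cisplatin also under median-of-ratios scaling. The call under cisplatin ended with any of the 4 cisplatin libraries left out (limma adjusted p 0.0772 to 0.119), and that in vehicle with any left out other than shControl vehicle replicate 1 and shZDHHC8 vehicle replicate 1 (adjusted p 0.0512 to 0.256).

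The ligases were lower in the knockdown whatever the treatment. LIG1, the replicative ligase that seals repair patches in dividing cells, was at 14.2 and 13.9 FPKM in shZDHHC8 cells with cisplatin and 19.1 and 17.6 with vehicle, against 24.1 and 22.8 in shControl cells with cisplatin and 26.0 and 25.7 with vehicle. No groups overlapped. It was the single member that fell with cisplatin in shZDHHC8 cells, at -0.36, 0.49 below the median of all genes (limma adjusted p = 0.00109), while the change of -0.13 in shControl cells was not called (adjusted p = 0.0691), each with an SE of 0.058. The interaction of -0.23 did not pass as deposited (limma adjusted p = 0.0665). It was called with a common total (limma adjusted p = 0.0429) and under median-of-ratios scaling (adjusted p = 0.0339). Median-of-ratios scaling also called the fall of LIG1 in shControl cells, at -0.24 (limma adjusted p = 0.0057). Between backgrounds LIG1 differed by -0.70 under cisplatin (limma adjusted p = 1.64e-05) and -0.47 in vehicle (adjusted p = 0.000196).

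LIG3, the ligase that works with XRCC1, was at 4.22 and 3.70 FPKM in shZDHHC8 cells with cisplatin and 4.17 and 4.34 with vehicle, against 5.59 and 6.12 in shControl cells with cisplatin and 7.02 and 7.19 with vehicle. All 4 shZDHHC8 libraries lay below all 4 shControl libraries. Between backgrounds LIG3 differed by -0.47 under cisplatin (limma adjusted p = 0.000869) and -0.63 in vehicle (adjusted p = 0.000229), each with an SE of 0.078. With cisplatin LIG3 fell in shControl cells by 0.24 (limma adjusted p = 0.024), a call lost without either shControl vehicle library or shControl cisplatin replicate 1 (adjusted p 0.067 to 0.136). It overlaps RFFL and CCT6B on the other strand.

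XRCC1, the scaffold that holds LIG3, was at 19.7 and 18.1 FPKM in shZDHHC8 cells with cisplatin and 17.7 and 17.8 with vehicle, against 26.6 and 27.9 in shControl cells with cisplatin and 22.8 and 20.9 with vehicle. Again the shZDHHC8 libraries were all below the shControl libraries. It rose with cisplatin in shControl cells by 0.31 (limma adjusted p = 0.0026) and changed by 0.089 in shZDHHC8 cells, 0.043 below the median of all genes (adjusted p = 0.266), each with an SE of 0.063. The knockdown change was -0.50 under cisplatin (limma adjusted p = 0.00017) and -0.29 in vehicle (adjusted p = 0.00531), and the interaction of -0.22 was not called (adjusted p = 0.098). XRCC1 overlaps PINLYP and L34079.3 on the other strand.

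Promoter sequence was read for the genes the results turn on, to show what lies upstream of the steepest risers with cisplatin and of the steepest faller in shControl cells. In shZDHHC8 cells GTF2H4, at 0.75, had the largest called rise, and LIG1 the only called fall. Of the 34 members 33 matched a RefSeq promoter entry of GRCh38.p14, and POLD3 had none. The 250 bases upstream of the RefSeq start were searched on both strands for GGGCGG (Sp factors), CCGGAAG (ETS factors), CCAAT (NF-Y), the cyclic AMP response element, an NRF1 site and E2F sites. Windows are POLE3 at chr9:113410676-113410925 on the minus strand, ELOF1 at chr19:11559231-11559480 on the minus strand, CDK7 at chr5:69234545-69234794 on the plus strand and RAD23B at chr9:107283029-107283278 on the plus strand, written 5′ to 3′ with motif matches in capitals.
POLE3: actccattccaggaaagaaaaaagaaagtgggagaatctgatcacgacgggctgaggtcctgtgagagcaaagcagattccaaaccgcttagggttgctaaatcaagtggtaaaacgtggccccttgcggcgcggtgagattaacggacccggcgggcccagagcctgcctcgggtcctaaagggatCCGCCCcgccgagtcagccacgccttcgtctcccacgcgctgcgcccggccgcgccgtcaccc
ELOF1: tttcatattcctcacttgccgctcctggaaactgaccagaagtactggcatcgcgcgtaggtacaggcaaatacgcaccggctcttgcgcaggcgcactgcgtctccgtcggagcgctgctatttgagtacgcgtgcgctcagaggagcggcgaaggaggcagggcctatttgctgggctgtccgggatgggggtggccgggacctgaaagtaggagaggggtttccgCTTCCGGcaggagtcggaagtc
CDK7: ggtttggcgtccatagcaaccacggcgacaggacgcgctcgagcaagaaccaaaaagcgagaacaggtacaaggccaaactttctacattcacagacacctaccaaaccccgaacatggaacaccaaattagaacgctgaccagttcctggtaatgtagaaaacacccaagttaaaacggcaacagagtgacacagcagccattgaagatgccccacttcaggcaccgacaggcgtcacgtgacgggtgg
RAD23B: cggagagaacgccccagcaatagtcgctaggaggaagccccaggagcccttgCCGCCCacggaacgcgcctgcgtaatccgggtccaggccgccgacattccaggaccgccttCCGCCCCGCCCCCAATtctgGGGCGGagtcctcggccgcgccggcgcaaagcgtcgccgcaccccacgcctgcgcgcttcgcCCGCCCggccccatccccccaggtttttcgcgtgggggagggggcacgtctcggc
POLE3 held a single match, to GGGCGG, and ELOF1 a single match, to CCGGAAG, both on the opposite strand. CDK7 held no match to these letters in this window. RAD23B held 6, of which 5 were GGGCGG and 1 CCAAT. Its window had 73.2% G and C, against 61.2% for POLE3 and ELOF1 and 52.0% for CDK7. The expression row of RAD23B starts at 107283137, inside this window, so part of the window lies within the gene as measured. Of the RAD23B matches only the GGGCGG farthest out, 198 bases before the RefSeq start, lies upstream of that position. Over the members GGGCGG occurred in 23 of 33 windows (69.7%), beside 68.2% of 9962 windows of tested genes and 42.2% of all 27305 windows. CCGGAAG occurred in 8 (24.2%), beside 16.9% of tested genes and 8.87% of all windows, and CCAAT in 10 (30.3%), beside 35.6% and 33.1%. TTTCCCGC, an E2F sequence, occurred in 1 (3.03%), that of LIG1, beside 2.4% of tested genes. The other E2F sequence, TTTGGCGC, occurred in none, beside 0.893% of tested genes. Neither the NRF1 site, in 2.09% of tested genes, nor TGACGTCA, the response element, in 2.87%, occurred in any of the 33. A match is a description of these letters and not a bound site.

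By position, a start site of another listed gene on the opposite strand lay within 1000 bp and pointed away for 10 of 34 (29.4%), beside 17.5% of tested genes, among them GTF2H1 with HPS5, ELOF1 with ZNF627 and ERCC8 with NDUFAF2. Chromosome 19 held 7 of 34 members (20.6%), beside 7.65% of tested genes, and chromosome 5 held 5 (14.7%), beside 4.70%. The rows of 16 members (47.1%) overlapped another gene's row, beside 49.1% of tested genes. On the same strand 6 members did so, namely GTF2H4, UVSSA, POLD3 and ERCC5, as given above, ERCC8 with GNL3LP1 and POLD1 with AC020909.1. Gene spans ran from 3.44 kb for POLE3 to 235 kb for MNAT1, with a median of 37.0 kb beside 29.7 kb over tested genes. Across the 34 members, the log2 change with cisplatin and log span had a Pearson's r of -0.46 and a Spearman's rho of -0.33 in shZDHHC8 cells, beside -0.21 for each over all 13495 tested genes. In shControl cells they were -0.099 and -0.079, beside -0.094 and -0.095. These describe genes measured in the same libraries, and genes are not independent replicates.

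The rest of the pathway comprised 54 further genes, all of which were tested. As deposited they also rose more often than they fell with cisplatin, as did all tested genes. Under median-of-ratios scaling all tested genes fell more often than they rose in each background. The 54 genes were counted as deposited only. With cisplatin 34 rose and 5 fell in shZDHHC8 cells, where 36.9% of all tested genes rose and 13.6% fell. In shControl cells 33 rose and 10 fell, where 36.8% of all tested genes rose and 25.4% fell. With the knockdown 14 were higher and 15 lower under cisplatin, beside 33.8% and 27.6% of all tested genes. In vehicle 17 were higher and 13 lower, beside 26.7% and 25.0%. The interaction called 8 higher and 11 lower, beside 17.0% and 13.4%. The sensors XPC and DDB2 differed from each other. XPC, the lesion sensor of the global branch, was at 11.7 and 11.7 FPKM in shZDHHC8 cells with cisplatin and 8.08 and 8.15 with vehicle, against 10.6 and 9.77 in shControl cells with cisplatin and 8.65 and 9.06 with vehicle. Its cisplatin libraries were above its vehicle libraries in each background, at 0.48 in shZDHHC8 cells, 0.35 above the median of all genes (limma adjusted p = 0.000381) and 0.19 in shControl cells (adjusted p = 0.0278). The call of XPC in shControl cells ended without either shControl vehicle library or shControl cisplatin replicate 1 (limma adjusted p 0.0526 to 0.17), with the libraries of that comparison alone (adjusted p = 0.0556), and under median-of-ratios scaling, where the change was 0.089 (adjusted p = 0.209). The interaction of XPC, 0.29, ended with any library left out other than shControl cisplatin replicate 1 (limma adjusted p 0.0594 to 0.106, from 0.0342). DDB2, the sensor encoded by a p53 target gene, was at 5.82 and 5.71 FPKM in shZDHHC8 cells with cisplatin and 5.65 and 6.92 with vehicle, against 6.81 and 6.91 in shControl cells with cisplatin and 11.1 and 9.98 with vehicle. The shControl vehicle libraries of DDB2 stood above the other 6. With cisplatin DDB2 fell in shControl cells, at -0.55 (limma adjusted p = 0.000707). In shZDHHC8 cells it was not called, at -0.10, 0.23 below the median of all genes (limma adjusted p = 0.378). DDB2 was lower in the knockdown in vehicle at -0.67 (limma adjusted p = 0.000359). Its knockdown change under cisplatin, -0.22, was not called as deposited. That change was called lower with a common total (limma adjusted p = 0.0156) and under median-of-ratios scaling (adjusted p = 0.0236).

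Of the single-strand binding and clamp-loading genes, RPA2, a subunit of replication protein A, was at 58.9 and 58.8 FPKM in shZDHHC8 cells with cisplatin and 38.1 and 38.9 with vehicle, against 44.9 and 43.6 in shControl cells with cisplatin and 23.5 and 22.9 with vehicle. No groups overlapped. The rise with cisplatin was 0.60 in shZDHHC8 cells, 0.47 above the median of all genes (limma adjusted p = 3.09e-05) and 0.90 in shControl cells (adjusted p = 8.77e-07). RFC2, a clamp-loader subunit, rose by 0.40 in shZDHHC8 cells, 0.27 above that median (limma adjusted p = 0.00199) and by 0.88 in shControl cells (adjusted p = 1.31e-05). PCNA, the sliding clamp, fell by 0.30 in shZDHHC8 cells, a change 0.44 below that median (limma adjusted p = 0.00133) and by 0.40 in shControl cells (adjusted p = 0.000159). POLD4, the smallest subunit of polymerase delta, was at 55.5 and 52.4 FPKM in shZDHHC8 cells with cisplatin and 38.4 and 34.2 with vehicle, against 24.5 and 21.8 in shControl cells with cisplatin and 28.0 and 28.2 with vehicle. The shZDHHC8 libraries were all above the shControl libraries, with a knockdown change of 1.19 under cisplatin (limma adjusted p = 3.66e-06), 0.36 in vehicle (adjusted p = 0.00363) and an interaction of 0.83 (adjusted p = 0.000865).

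Among polymerase and accessory genes, POLR2A, the largest subunit of RNA polymerase II, was at 37.0 and 34.9 FPKM in shZDHHC8 cells with cisplatin and 20.7 and 18.9 with vehicle, against 38.3 and 41.3 in shControl cells with cisplatin and 33.8 and 34.4 with vehicle. The shZDHHC8 vehicle libraries were lowest, and the knockdown change in vehicle was -0.75 (limma adjusted p = 2.52e-05). It rose with cisplatin by 0.83 in shZDHHC8 cells, 0.70 above the median of all genes (limma adjusted p = 3.13e-05) and by 0.22 in shControl cells (adjusted p = 0.0147). POLR2I, a small subunit, changed with cisplatin by -0.27 in shZDHHC8 cells, 0.40 below that median (limma adjusted p = 0.0251), a call lost without shZDHHC8 vehicle replicate 1 (adjusted p = 0.134) or shZDHHC8 cisplatin replicate 2 (adjusted p = 0.175), and by 0.42 in shControl cells (adjusted p = 0.00221). STK19, a factor of the transcription-coupled branch, was higher in the knockdown by 0.24 under cisplatin (limma adjusted p = 0.0193) and by 0.75 in vehicle (adjusted p = 5.72e-05). PPIE, a partner of XAB2, rose with cisplatin by 0.62 in shZDHHC8 cells, 0.49 above that median (limma adjusted p = 0.000482) and 0.80 in shControl cells (adjusted p = 4.97e-05). COPS7A, of the COP9 signalosome that restrains the CUL4 ligase, fell with cisplatin by 0.22 in shZDHHC8 cells, a change 0.35 below that median (limma adjusted p = 0.0312) and by 0.49 in shControl cells (adjusted p = 0.000379). POLR2K, a subunit shared among RNA polymerases, was higher in the knockdown by 0.63 under cisplatin (limma adjusted p = 0.000567) and by 0.56 in vehicle (adjusted p = 0.0016). YY1, a DNA-binding partner of the INO80 remodeller, was lower in the knockdown, at -0.61 under cisplatin (limma adjusted p = 2.69e-05) and -0.48 in vehicle (adjusted p = 0.000135).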

How the data were processed

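The authors deposited 1 table of normalized expression values for 8 poly(A) RNA-seq libraries, 2 per group, extracted with TRIzol and treated with DNase I, all labelled batch 1. The table does not name its unit. Its values were taken as FPKM, as deposited, with hg38 as the genome build per the submitters' processing notes. For the quantifier, its annotation release and use of strand, no source used here gives a name or setting. Whole reads could not be recovered: 7 of 3743 low non-coding genes shared the commonest ratio between replicates, so depth is unknown.

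From these values log2(FPKM + 1) was fitted over all 8 libraries with limma 3.58.1 in R 4.3.3, with 4 group means, an intensity trend and 4 residual degrees of freedom. Genes at 1 FPKM or more in at least 2 libraries were kept (13495 genes). Benjamini-Hochberg adjustment ran over all of them, with a threshold of 0.05, for each of 5 comparisons. The procedure was tested on simulated data. Library values are given for the 4 largest called rises and 4 largest called falls among members in each comparison of treatment or knockdown and for members called in the interaction; values in every library for ERCC8, XPC, DDB2, RPA2, POLD4 and POLR2A were added. Members and lists were chosen with earlier results of these data known. Alternatives were a pseudocount of 0.1, no filter, a common total, median-of-ratios scaling, no trend, the libraries of a comparison alone, a replicate block and each library left out. Promoters came from RefSeq, GRCh38.p14. The replicate numbers did not pair the libraries: deviations of same-numbered libraries correlated at -0.0515 to 0.0198 over 6 pairs of groups.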

Additional observations from a re-analysis of the deposited data

Results flagged for a closer look

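The change with cisplatin differed between shZDHHC8 and shControl cells by the interaction test for 9 repair genes. The differences in log2 change, shZDHHC8 minus shControl, were 0.56 for RAD23B (limma adjusted p = 0.00103), 0.50 for CUL4B (adjusted p = 0.00839), -0.36 for ERCC2 (adjusted p = 0.0103) and -0.41 for CDK7 (adjusted p = 0.0367). They were -0.29 for ELOF1 (limma adjusted p = 0.0402), -0.24 for POLD2 (adjusted p = 0.0385), -0.68 for POLD3 (adjusted p = 0.00488), -0.42 for POLE2 (adjusted p = 0.012) and -0.45 for POLE3 (adjusted p = 0.00337). The calls of CDK7, ELOF1 and POLD2 ended with single libraries left out, whereas those of RAD23B, CUL4B, ERCC2, POLD3, POLE2 and POLE3 held under every alternative run.

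Among the other pathway genes named, the difference was -0.30 for RPA2 (limma adjusted p = 0.00878), -0.47 for RFC2 (adjusted p = 0.00977), -0.51 for STK19 (adjusted p = 0.00751) and -0.69 for POLR2I (adjusted p = 0.00357). It was 0.83 for POLD4 (limma adjusted p = 0.000865), 0.61 for POLR2A (adjusted p = 0.00172), 0.45 for DDB2 (adjusted p = 0.0287) and 0.29 for XPC (adjusted p = 0.0342). The call of DDB2 ended with any of 6 libraries left out, namely replicate 1 of either vehicle group and the 4 cisplatin libraries. It also ended without the filter (limma adjusted p = 0.0592). That of XPC ended with any library left out other than shControl cisplatin replicate 1, and with a replicate block (limma adjusted p = 0.0527).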

How the results depend on the processing

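Under median-of-ratios scaling 8 members rose and 2 fell with cisplatin in shZDHHC8 cells (15 and 1 as deposited), and 13 were lower in the interaction (7 as deposited). With a common total 2 members fell with cisplatin in shZDHHC8 cells, 6 were higher in the knockdown under cisplatin (11 as deposited) and 11 were lower in the interaction. Without the filter, and without the variance trend, 4 were lower in the interaction. The counts over all tested genes, given above, moved with these settings as well. The causes were not tested. With each library left out in turn, members that rose with cisplatin numbered 10 to 15 in shZDHHC8 cells and 18 to 21 in shControl cells, and those that fell 1 to 2 and 2 to 5. In the knockdown 8 to 11 were higher and 10 to 12 lower under cisplatin, and 7 to 13 higher and 4 to 9 lower in vehicle, with 2 to 3 higher and 4 to 7 lower in the interaction. In vehicle 4 were lower in the knockdown without shControl vehicle replicate 1 and 7 higher without shZDHHC8 vehicle replicate 2. With cisplatin 10 rose in shZDHHC8 cells without shZDHHC8 vehicle replicate 1 or shZDHHC8 cisplatin replicate 2, and 2 fell in shControl cells without either shControl vehicle library or shControl cisplatin replicate 2. Without shControl vehicle replicate 2, 4 were lower in the interaction. The change of DDB2 with cisplatin in shZDHHC8 cells, uncalled at -0.10, ran from -0.23 to 0.026 with single libraries left out, the last without shZDHHC8 vehicle replicate 2. With a replicate block the counts higher and lower were 14 and 1 with cisplatin in shZDHHC8 cells, 19 and 4 in shControl cells, 10 and 12 for the knockdown under cisplatin, 9 and 7 in vehicle, and 2 and 5 in the interaction. Single libraries left out leave an arm with 1 library, which is assumed to vary like the other groups. Depth is unknown, so no floor or counting interval could be given, and with 4 residual degrees of freedom the median SE was 0.079 for a simple change and 0.11 for the interaction.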
